A study of Mus musculus with 2 samples.

Results

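Bile acids are made from cholesterol in hepatocytes. The classic route starts with the 7-alpha-hydroxylase Cyp7a1, the alternative routes start with side-chain or oxysterol hydroxylases, the side chain is then shortened in peroxisomes, and the finished acid is activated to a CoA thioester and joined to an amino acid, in the mouse mainly taurine. Bile acids bind the nuclear receptor FXR, which lowers their own synthesis through the repressor SHP and raises their export. The genes described here are 10 listed for this pathway, chosen by name and with earlier results of these data known. Cyp7a1, Hsd3b7, Cyp8b1, Cyp27a1 and Cyp39a1 are synthesis enzymes. Slc27a5 and Baat are conjugation genes, Acnat1 and Acnat2 are relatives of Baat, and Nr1h4 is the gene of FXR. Of the 10 genes, 9 had a probe set with their symbol in the platform annotation, among 15644 such genes in all. Acnat1 had none and was not analysed here.

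The study compared primary hepatocytes treated with pregnenolone 16α-carbonitrile (PCN), a synthetic steroid that activates the rodent pregnane X receptor (PXR), with cells given its vehicle. All cells came from a male C57BL/6 mouse of 9 weeks and had been in culture for 24 h; the labels name no transgene or deletion. The DMSO group received dimethyl sulfoxide and the PCN group 10 µmol/l PCN, each for 12 h. RNA of 3 samples was pooled per group and hybridised to 1 Affymetrix array, so the series holds 2 arrays and no replicates: no spread between cultures can be given, no test was possible, and a value called higher or lower is so between 2 arrays.

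Values are GCRMA intensities, a background-corrected and normalized measure that can be compared between the arrays for 1 gene but not between genes, because probes differ in how they bind. Intensities under 32 (5 on the log2 scale) were treated as too dim to measure. With this floor 6449 genes were measured in at least 1 array. Bacterial and phage control probe sets, which are independent of the cultures, gave a scale for array-to-array error: over the 40 that reached the floor, the log2 difference had an SD of 0.10 and ran from -0.33 to 0.16. The label of the cells was checked against hepatocyte markers. Of 8 listed, 6 were measured, and all 6 differed by less than the control SD, as did 2829 of all 6449 measured genes. Among the 6 was Alb, at 21685 with DMSO and 21383 with PCN. At such brightness array signal can be compressed. Tat, the tyrosine aminotransferase of mature hepatocytes, was under the floor in both arrays, at 23.9 and 14.9. The PXR target Gstm3 was 2.47-fold higher with PCN. For 4 mouse control transcripts with probe sets at both ends, the 3' to 5' log2 ratio, a sign of RNA integrity, changed by -0.12 to 0.04 between the arrays. The ratio itself, with DMSO and PCN, was -0.02 and -0.03 for Gapdh and 0.59 and 0.60 for beta-actin. It was 1.84 and 1.88 for the transferrin receptor and 3.06 and 2.94 for pyruvate carboxylase, so the 3' end was much brighter for these in both arrays.

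The largest differences among the measured genes of the pathway were those of Baat and its relative Acnat2. Baat joins bile acids to an amino acid, in the mouse mainly taurine. Its intensity was 81.5 with DMSO and 35.1 with PCN, the second just above the floor. Baat was 2.32-fold lower with PCN, a log2 difference of -1.22, so that 43.0% of the DMSO intensity was left. Acnat2, a close relative of Baat in the acyl-CoA:amino acid N-acyltransferase family, had an intensity of 94.2 with DMSO and 27.7 with PCN, under the floor. Its difference is therefore a bound, at least 2.94-fold lower, or -1.77 on the log2 scale with the values as deposited. Whether Acnat2 acts on bile acids is not shown by these data. Baat and Acnat2 thus both lay above the floor in the DMSO array and close to it or under it in the PCN array. Slc27a5, the bile acid CoA ligase that acts one step before Baat, did not share this: it had intensities of 1523 and 1507, a log2 difference of -0.01 that was smaller than the control SD.

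Counted from the most lowered of the 6449 measured genes, with bounds taken at their value, Baat was at position 6. Acnat2 has no exact position, because its difference is a bound and it was measured only through its DMSO value. A difference of 2-fold or more in this direction was found in 15 of 6449 genes, or 0.233%. Because array noise can depend on level, the same count was also taken among genes with a log2 DMSO intensity from 6 to under 7, a range that holds both genes: 7 of 1162 were lower by 2-fold or more, or 0.602%. Baat and Acnat2 are 2 of those 7. This range was chosen after their values were seen. In terms of the control SD, Baat differed by 11.8 and Acnat2 by at least 15.1 times that spread. It does not cover differences between cultures, and how far it covers labelling was not tested. Only 2829 of the 6449 measured genes differed by less than this SD. The control probe sets were not matched to these genes by level, so the SD may be too small for signal near the floor. The calls depend on the floor: at 6 on the log2 scale the PCN values of both genes would be raised to it, and the differences would be bounds of -0.35 for Baat and -0.56 for Acnat2.

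**Figure D1:**
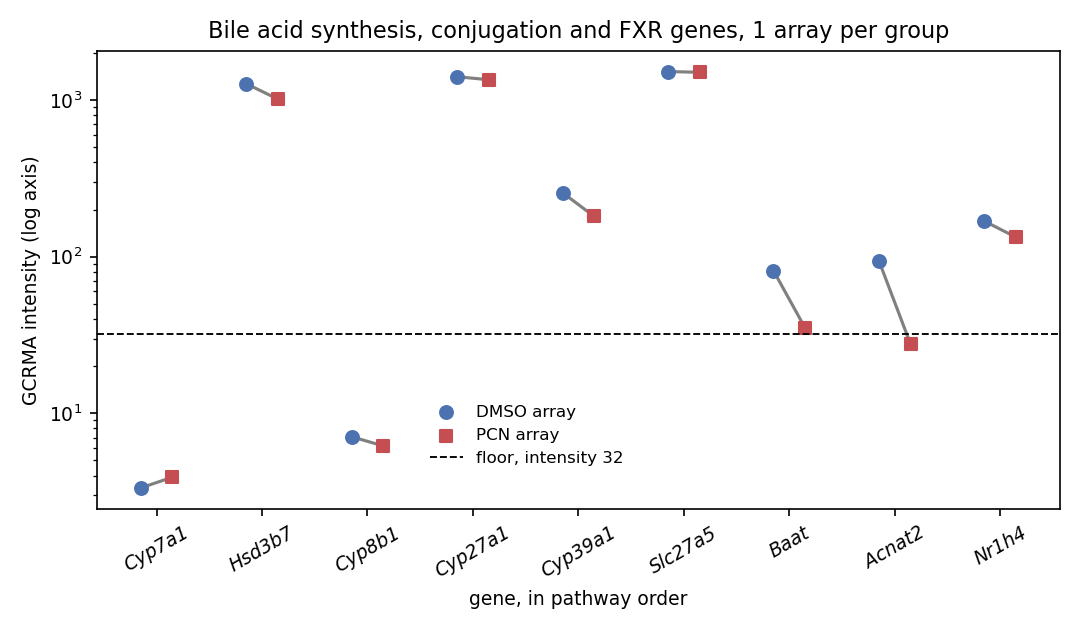
GCRMA intensity (log axis) of the 9 genes with a probe set, in pathway order, with 1 point for the DMSO array and 1 for the PCN array; there are no replicates and no error bars, and heights of different genes are not comparable. Baat goes from 81.5 to 35.1 and Acnat2 from 94.2 to 27.7, across the floor of 32, while Slc27a5 and Cyp27a1 are nearly level and Cyp7a1 and Cyp8b1 lie under the floor in both arrays.

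Baat, Acnat1 and Acnat2 lie in 1 cluster on mouse chromosome 4 in the RefSeq gene table (assembly GRCm38.p6), with Acnat1 between the other two. The stretch from 5 genes before the cluster to 5 after it holds 19 entries, 16 of them other genes, many of them pseudogenes or non-coding RNAs. Of these 16, 4 had a named probe set and 1 was measured. That gene, Mrpl50, which encodes a mitochondrial ribosomal protein and lies on the far side of Baat, had intensities of 437 and 427, a log2 difference of -0.03. Plppr1, Zfp189 and Pgap4 were under the floor in both arrays. The measured part of the neighbourhood is thus too small to say how far the lower values extend along the chromosome. Pseudogenes and Acnat1 resemble or adjoin Acnat2, and how far the Acnat2 probe set also reads them is not shown by these data.

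Upstream sequences are given for 3 genes to set the gene with the largest difference (Acnat2, which has 2 annotated starts) beside 1 with a moderate difference (Nr1h4) and 1 that was nearly level (Cyp27a1). They are the 250 bases before each RefSeq start (GRCm38.p6), 5′ to 3′ on the gene's strand, at chr4:49408152-49408401 and chr4:49405759-49406008 (minus strand), chr10:89506659-89506908 (minus strand) and chr1:74713285-74713534 (plus strand). RefSeq windows were at hand for 6 of the 10 genes, and Baat was not among them. Capitals mark matches to any of 6 motifs searched on both strands.
Acnat2 first start: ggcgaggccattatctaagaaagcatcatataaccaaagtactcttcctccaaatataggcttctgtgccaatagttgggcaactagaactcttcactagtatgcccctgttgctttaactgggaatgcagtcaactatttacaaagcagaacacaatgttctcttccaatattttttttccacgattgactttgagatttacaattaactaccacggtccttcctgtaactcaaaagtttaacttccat
Acnat2 second start: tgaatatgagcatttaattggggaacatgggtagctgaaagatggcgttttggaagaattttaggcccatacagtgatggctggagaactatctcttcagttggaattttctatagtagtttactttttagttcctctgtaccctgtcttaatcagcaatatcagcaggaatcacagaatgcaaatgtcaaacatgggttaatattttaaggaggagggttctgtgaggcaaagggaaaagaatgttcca
Nr1h4: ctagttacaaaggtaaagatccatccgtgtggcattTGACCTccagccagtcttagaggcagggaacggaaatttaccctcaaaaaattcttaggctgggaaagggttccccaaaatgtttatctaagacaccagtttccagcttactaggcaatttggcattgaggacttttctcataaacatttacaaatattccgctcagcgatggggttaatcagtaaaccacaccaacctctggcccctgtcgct
Cyp27a1: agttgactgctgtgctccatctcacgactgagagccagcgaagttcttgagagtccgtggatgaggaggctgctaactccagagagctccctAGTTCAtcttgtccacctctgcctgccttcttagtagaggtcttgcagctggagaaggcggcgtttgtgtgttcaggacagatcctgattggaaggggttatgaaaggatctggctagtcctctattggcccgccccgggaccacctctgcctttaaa

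The motifs were the nuclear receptor half-site AGGTCA, its variant AGTTCA, the inverted repeat of AGGTCA spaced by 1 base that is known for FXR, the direct repeat of AGGTCA spaced by 1 base that is known for HNF4A, the HNF1 palindrome and the TATA box TATAAA. Both repeats contain the half-site. Nr1h4 held AGGTCA on the opposite strand, 214 to 209 bases before its start, and Cyp27a1 held AGTTCA, 158 to 153 bases before its start. Neither Acnat2 window held any of the 6. Among all 32851 RefSeq windows of this length, AGGTCA was found in 14.0%, AGTTCA in 11.8%, TATAAA in 12.4%, the inverted repeat in 0.00609%, the direct repeat in 0.0335% and the HNF1 palindrome in 0.00913%. The Acnat2 windows held 38.4% and 38.8% G and C, against 44.4% for Nr1h4 and 54.0% for Cyp27a1. The windows of Cyp8b1, Acnat1 and Hsd3b7, not printed here, held 44.8%, 51.6% and 58%. This share was not computed over all windows. A match is a string of letters, not a bound site, and a window without one shows only that these letters are not in it.

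The synthesis enzymes showed smaller differences, and the 2 best known regulated ones could not be measured. Cyp7a1, which sets the rate of the classic route, had intensities of 3.34 and 3.91, and Cyp8b1, the 12-alpha-hydroxylase that steers the product towards cholic acid, had 7.08 and 6.19, all under the floor, so no direction is given for either. Hsd3b7, the 3-beta-hydroxysteroid dehydrogenase that acts next after 7-alpha-hydroxylation on every route, had intensities of 1274 with DMSO and 1016 with PCN. It was 1.25-fold lower, a log2 difference of -0.33, inside the range of the control probe sets. Cyp27a1, the mitochondrial sterol side-chain hydroxylase of the alternative route, had 1412 and 1350, a log2 difference of -0.06 and smaller than the control SD. Cyp39a1, the 7-alpha-hydroxylase of 24-hydroxycholesterol, had 256 and 181. It was 1.42-fold lower, a log2 difference of -0.50, outside the range of the controls. Among the enzymes that could be measured, Cyp39a1 thus stood furthest from its DMSO value, and at position 125 of 6449 from the most lowered gene it was far less extreme than Baat and Acnat2.

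Nr1h4 had an intensity of 169 with DMSO and 133 with PCN. It was 1.27-fold lower, a log2 difference of -0.34, just beyond the lowest control probe set. Among genes that FXR is known to activate, Nr0b2, Abcb11, Slc51a and Slc51b gave no measurable readout. These genes do not stand for all FXR targets. Such targets were not followed as a set, and others may be among the measured genes. Nr0b2, which encodes SHP, had intensities of 13.5 and 9.78, and the bile salt export pump gene Abcb11 had 17.4 and 15.9. For the subunits of the basolateral exporter, Slc51a had 4.76 and 4.70 and Slc51b had 9.72 and 7.61. All 8 values were under the floor.

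Taken over the group, all 7 measured genes had a lower value with PCN, where 42.4% of all measured genes did. For 2 of the 7, Slc27a5 and Cyp27a1, the difference was smaller than the control SD, as in 2829 of all 6449 measured genes. Acnat2 counted as measured only through its DMSO value. In the 6 genes measured in both arrays the median log2 difference was -0.34, beside 0.03 over all genes measured in both. Lower by 1.5-fold or more were 2 of the 7, Baat and Acnat2, where 1.30% of measured genes were. The genes were chosen with earlier results of these data known, so these counts only describe the group.

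**Figure D2:**
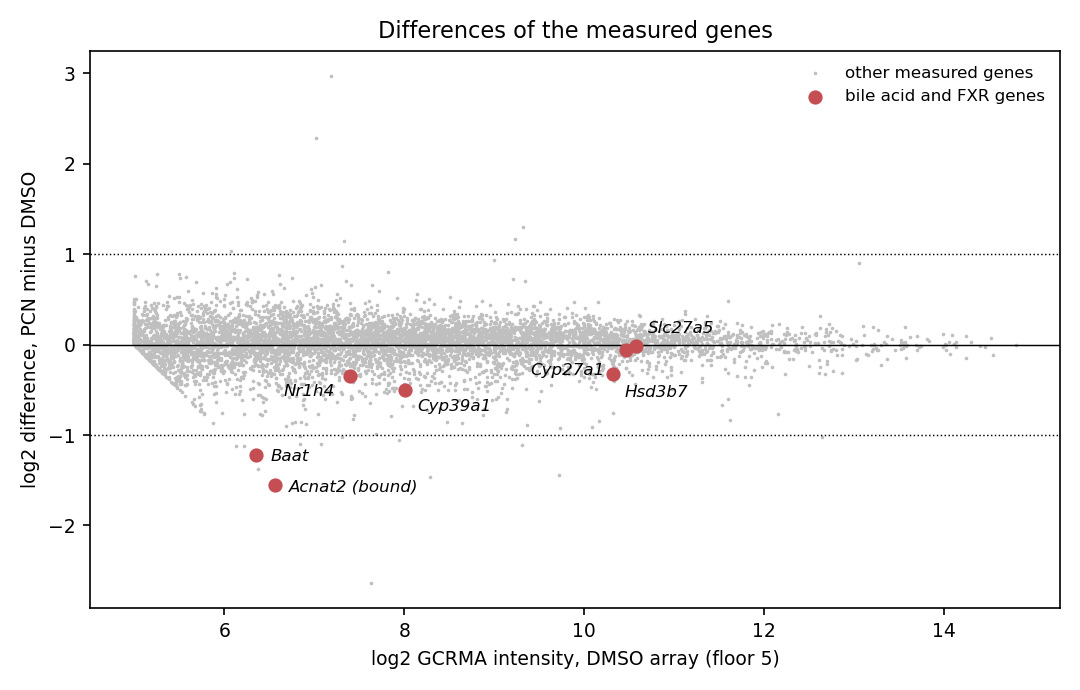
Log2 difference (PCN minus DMSO) of each of the 6449 measured genes against its log2 intensity in the DMSO array, with the 7 measured bile acid and FXR genes in red and dotted lines at 2-fold. Baat (-1.22) and Acnat2 (bound, at least 2.94-fold) lie below the lower line at the dim end, Cyp39a1, Nr1h4 and Hsd3b7 lie between -0.50 and -0.33, and Slc27a5 and Cyp27a1 lie near 0; the slanted edge at the left is made by the floor.

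The rest of the pathway was followed in 6 lists by role, 62 genes in all, of which 31 were measured. Of these 31, 24 had a lower and 7 a higher value with PCN, where 42.4% of all measured genes were lower. The median log2 difference of the 31 was -0.11, beside 0.03 over all measured genes. The counts and medians of the single lists below are to be read beside the same values. Past 1.5-fold and lower were 3 of the 31, beside the 1.30% of all measured genes. The lists were chosen with earlier results of these data known, so such shares only describe them. Higher by 1.5-fold or more was 1, beside 0.636%. That gene was Cyp3a11, a PXR target that hydroxylates bile acids and drugs, with intensities of 8519 and 15919.

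Taurine supply held 2 of the 3 genes lower by 1.5-fold or more, and they are consecutive enzymes. Cdo1, cysteine dioxygenase, which opens the route from cysteine to taurine, had an intensity of 3144 with DMSO and 1768 with PCN. It was 1.78-fold lower, a log2 difference of -0.83, at position 29 of 6449 from the most lowered gene. Csad, the decarboxylase that turns the product of Cdo1 into hypotaurine, had 251 and 157. It was 1.60-fold lower, a log2 difference of -0.68, at position 55. Unlike Baat, both enzymes lay well above the floor in both arrays. The other 3 measured genes of the list stood closer to their DMSO values. The transporter gene Slc6a13 differed by -0.29 on the log2 scale. Slc6a6, the main taurine transporter gene, had 353 and 364, and Ado, which makes hypotaurine from cysteamine, had 41.5 and 44.1, both within the control SD. Gadl1 and Fmo1 were under the floor, Fmo1 at 22.3 and 10.9. In all, 3 of the 5 measured genes of the list were lower and 2 higher, with a median of -0.29.

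Among enzymes acting on the ring and on oxysterols, 3 of 7 were measured. Besides Cyp3a11, these were Cyp7b1, the oxysterol 7-alpha-hydroxylase of the alternative route, at 555 and 518, and Cyp2c70, which makes the muricholic acids of the mouse, at 7176 and 6635. Their log2 differences of -0.10 and -0.11 were close to the control SD. Akr1d1, the 5-beta-reductase of both routes, was under the floor at 7.57 and 12.3. For the peroxisomal steps, 8 of 9 genes were measured, 7 lower and 1 higher, with a median of -0.18 and none at 1.5-fold. Slc27a2, a very long chain acyl-CoA synthetase, had 499.8 and 372, 1.34-fold lower. Acot8, a peroxisomal thioesterase that can release bile acids from CoA, had 169.6 and 129.9, 1.31-fold lower. Amacr, the racemase that prepares the side chain for oxidation, had 151 and 120.0, 1.25-fold lower. The other 4 lower genes of the list included Hsd17b4, the multifunctional enzyme of side-chain oxidation, nearly level at 1164 and 1154. Of the thioesterases of the family to which Baat belongs, only Acot2 was measured, at 76.2 and 69.3. Its log2 difference was -0.14, beside -1.22 for Baat.

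Of 14 bile acid transport genes, 5 were measured, 2 higher and 3 lower, with a median of -0.05. Abcc2, an exporter of conjugates into bile, had intensities of 897 with DMSO and 1187 with PCN, a log2 difference of 0.40. Abcc4, a basolateral exporter, had 110 and 129, a difference of 0.23. Abcb4, which supplies phospholipid to bile, had 116 and 85.7, a difference of -0.43. Abcc3 was nearly level at 1219 and 1162, a difference of -0.07, and so was Atp8b1 at 159 and 154, a difference of -0.05. PXR targets were not followed as a set. Gstm3 and Cyp3a11 carry that label here, but other genes named, whether higher, level or too dim, may be targets too. The uptake transporter Slc10a1 was under the floor at 20.2 and 17.7, as was Slco1a4 at 5.54 and 7.80. The transport genes thus differed in both directions, and those for the main uptake and export of bile salts were too dim to read.

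Among FXR partners and regulators of synthesis, 9 of 19 were measured, 8 lower and 1 higher, with a median of -0.16. Cebpa, a factor of differentiated hepatocytes, had 400 and 219, a log2 difference of -0.87 and the third of the genes lower by 1.5-fold or more. Ppara, the fatty acid receptor gene, differed by -0.50, and Nr5a2, whose product LRH-1 activates Cyp7a1 and Cyp8b1, had 169 and 132, a difference of -0.35. Hnf4a, a central activator of bile acid genes including Baat, had 529 and 457, a difference of -0.21. Rxra, the partner of FXR, had 53.3 and 50.2, within the control SD. The higher gene was Nr1h3, which encodes the oxysterol receptor LXR alpha, at 73.4 and 85.1. Fgfr4, the receptor for the intestinal signal that lowers synthesis, was under the floor at 18.5 and 11.4.

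**Figure D3:**
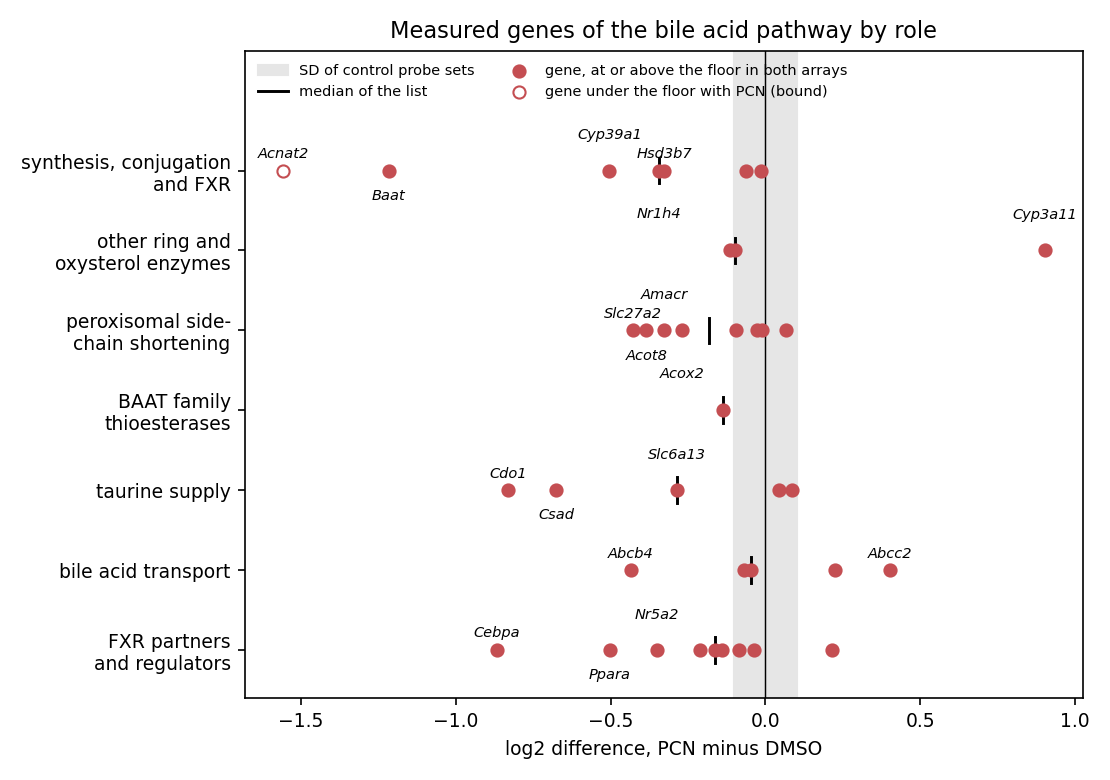
Log2 difference (PCN minus DMSO) of each measured gene of the pathway, 1 row per role; filled points reached the floor in both arrays, the open point is a bound, black ticks are list medians and the grey band is 1 SD of the control probe sets either side of 0. Baat, Acnat2, Cdo1, Csad and Cebpa lie furthest to the left, Cyp3a11 (0.90) and Abcc2 (0.40) furthest to the right.

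Markers of other liver cells were mostly under the floor. Of the bile duct markers 2 of 8 were measured, Krt19 at 169 with DMSO and 223 with PCN, and Sox9 at 127 and 95.2. For Kupffer cells and leukocytes 1 of 8 was measured, Cd68, which cultured hepatocytes can also express, at 1690 and 1626. Endothelial markers had 2 of 7 measured, and stellate cell markers 1 of 8. The endothelial markers measured were Stab2, at 42.1 and 37.0, and Lyve1, at 30.4 and 39.8, and the stellate cell marker was Acta2, at 36.5 and 30.6. Epcam, Adgre1, Clec4f, Cdh5 and Lrat had intensities under 12 in both arrays, but other markers under the floor were brighter. Pecam1 had 26.1 with DMSO and 29.9 with PCN, Kdr 14.4 and 18.0, and Vsig4 12.1 and 17.7. Csf1r had 14.2 and 14.1, and Col3a1 20.9 and 20.9. The part of these cells in the results was not tested, and in bulk RNA fewer cells of a type and less RNA per cell cannot be told apart. Nor, with 1 array per group, can an effect of array handling be told apart from that of PCN.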

How the data were processed

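RNA of 2 groups was measured on 1 Affymetrix array each, from 5 µg of pooled total RNA. The deposited values are intensities on a linear scale. Per the submitters' processing notes, they were made with GCRMA 2.2.0, which models background from probe sequence and brings arrays to a common distribution, which hides any change in total RNA per cell. The sources used here name no genome build or probe set definition. Genes were named through the platform annotation.

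Log2 differences were computed as PCN minus DMSO in pandas 2.3.3 and numpy 2.4.6 (Python 3.11.15). A gene was measured if it reached 5 on the log2 scale in at least 1 array. A lower value in the other array was raised to that floor, which gives a bound. Folds of 1.5 and 2 were used for counts. The number of arrays limits the precision, and no detection calls were used. The procedure was checked on simulated arrays, with changes placed only in genes well above the floor. The check therefore says nothing about changes near the floor, where Baat and Acnat2 lie.

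The genes, the lists and the floor were chosen with earlier results of these data known. Named genes are the 10 pathway genes, the 3 measured genes with the largest difference in each list, 11 fixed by name and the neighbours of Baat. The rule also took the 3 genes nearest to Baat by level, which are left out because levels of different probe sets cannot be compared. Others are named to describe a list and were chosen after their values were seen. The alternatives were floors of 4 and 6, dim values as deposited, quantile normalization, median centring, a loess trend removed (statsmodels 0.14.6, fraction 0.3) and no floor. Upstream sequences are from RefSeq.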

Additional observations from a re-analysis of the deposited data

How the results depend on the processing

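All alternatives were planned. The count of lower genes among the 7 measured was 7 under each of the 6 settings with a floor, and with no floor it was 8 of 9, with 1 higher, which counts Cyp7a1 and Cyp8b1 although both are too dim to have a direction. With quantile normalization, median centring or the loess trend removed, Baat stayed between -1.25 and -1.20 on the log2 scale. The floor mattered most. With a floor of 6, the PCN values of Baat and Acnat2 were raised to it, so Baat stood at -0.35 and Acnat2 at -0.56 as bounds. At that floor 0 genes of the pathway group were lower by 1.5-fold and 0 by 2-fold. Acnat2 stood at -1.77 with a floor of 4, with values under the floor as deposited and with no floor. With no floor, 33 named genes were 2-fold or more apart in place of 21. A count of 25 was already reached over the same measured genes with values under the floor as deposited, and the rest came with genes under the floor in both arrays. The median of all measured genes moved by under 0.1 under each scaling. With 1 array in each group no replicate could be left out. No paired analysis was possible because no group had replicates. Signal near background limits Baat and Acnat2 in the PCN array and Cyp7a1, Cyp8b1, Nr0b2 and Abcb11 in both.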
